A study of Mus musculus with 6 samples.

Results

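The genes described here are the mouse Wnt ligands, their receptors and the inhibitors and nuclear partners of the pathway, measured in aortas with and without Prdm16 in smooth muscle cells. Members were all protein-coding genes whose symbol belongs to the Wnt, Fzd, Sfrp, Dkk, Rspo, Axin, Nkd or Tcf7 families, or is Wif1, Lrp5, Lrp6, Ror1, Ror2, Ryk, Lef1, Notum, Lgr4, Lgr5, Lgr6, Porcn, Znrf3, Rnf43 or Ctnnb1. This gave 63 of the 55487 genes in the deposited table. Bulk RNA-seq libraries came from the aortas of 6 male mice on a C57BL/6 background, 3 in the Control group and 3 in the group named iSM KO (inducible smooth muscle knockout). The iSM KO mice were Prdm16 F/F, with loxP sites around exon 9, and the Controls were Prdm16 W/W mice from the same kind of cross. All 6 mice carried the Y-linked Myh11-CreERT2 transgene, whose smooth muscle promoter drives a recombinase that tamoxifen activates. Both groups received 1 mg of tamoxifen per day from 8 weeks of age for 10 days, in blocks of 5 days with a break of 2 days, and were kept through a washout of 2 weeks and for 60 days after it. RNA came from vessels stripped of adventitia.

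Wnt proteins are secreted, lipid-modified ligands that bind Frizzled receptors, with Lrp5 or Lrp6 as coreceptors in the branch that stabilizes β-catenin and with Ror or Ryk receptors in branches that do not. Secreted inhibitors hold the ligands or coreceptors outside the cell, R-spondins and their Lgr receptors spare Frizzled proteins from the membrane ligases Znrf3 and Rnf43, and Axin, Naked cuticle and Tcf/Lef proteins act inside the cell. In arteries the pathway is known for roles in smooth muscle proliferation and survival, in calcification and in endothelial growth.

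The libraries held 24911609 to 40460467 counts, with the fewest in Control 3, and protein-coding genes took 59.0% to 67.6% of them. Counts were scaled by TMM factors and are given as CPM, each count relative to that scaled total. Prdm16, the targeted gene, stood at 183, 223 and 179 CPM in Controls 1 to 3 and at 93.8, 113 and 79.8 CPM in iSM KO 1 to 3, a log2 fold change of -1.03 (SE 0.14, FDR = 0.00265 by edgeR's quasi-likelihood test). Counts cover the whole gene, so exon 9 could not be separated. Smooth muscle markers were abundant in all 6 libraries, with Myh11 at 7788 CPM in Controls against 9011 CPM in iSM KO, and of 7 such markers Myocd alone passed the test, with a log2 fold change of 0.65. In bulk tissue, fewer cells of a type and less RNA per cell cannot be told apart.

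Of the 63 members, 39 were counted often enough to be tested, which took more than 10 counts in every library of the Controls or of the iSM KO group. At an FDR under 0.05, 6 members were higher in iSM KO (Porcn, Fzd1, Ror1, Sfrp4, Lgr6 and Nkd1) and 5 were lower (Wnt16, Fzd4, Fzd8, Wif1 and Dkk3), and 28 did not pass. DESeq2 called 8 higher and 8 lower, counts that cannot be weighed here because no share of all genes is given for them. Without iSM KO 2, edgeR called 3 and 3, beside 313 higher and 203 lower of all 16883 genes tested. The called share of tested members was 28.2%, beside 7.56% of all 16565 genes tested, with 4.26% higher and 3.30% lower. With a fold change over 2 required as well, 3 members were lower (Wif1, Wnt16 and Dkk3) and 0 were higher, the largest rise being 0.89 on the log2 scale, beside 1.38% and 1.40% of all genes, or 2.78% in both directions. The median log2 fold change of the tested members was -0.14, beside -0.01 for all genes. Groups did not overlap for 10 members with iSM KO above and 13 with iSM KO below, beside 27.9% of all genes in either direction. Directions thus differed among members of one role, as the plot of log2 fold changes by role shows.

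**Figure D1:**
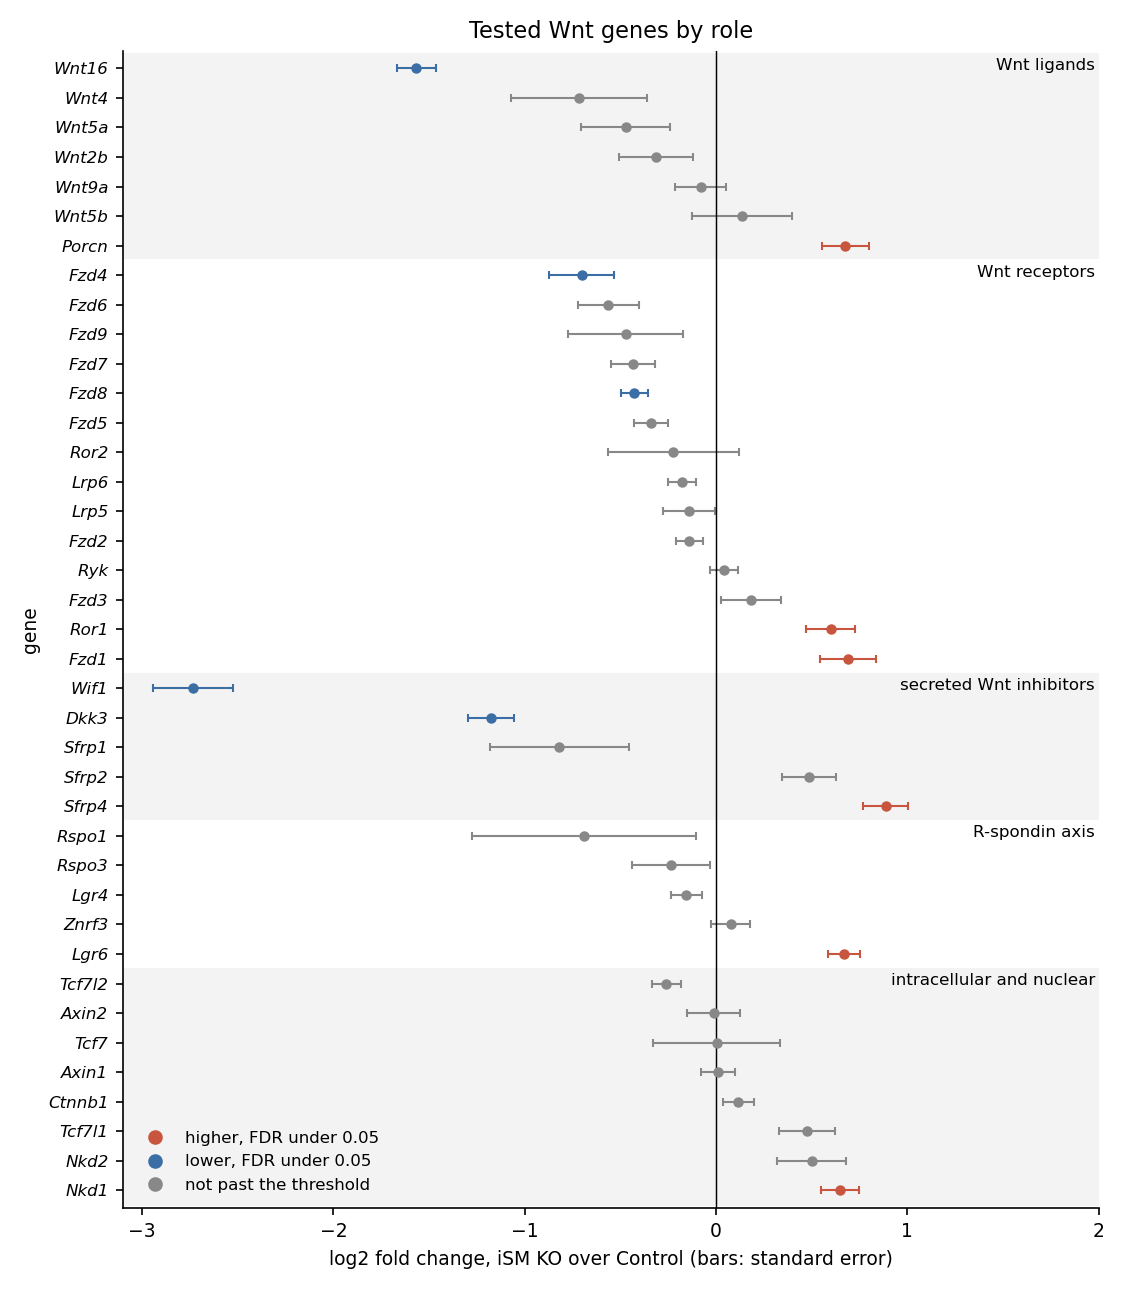
Log2 fold changes of the 39 tested Wnt genes (x axis, iSM KO over Control) with standard errors as bars, grouped by role on the y axis. Red and blue points passed an FDR of 0.05 as higher (6 genes) and lower (5 genes). Wif1 at -2.74 lies farthest from 0.

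Among the 20 ligand genes, counted here with Porcn, the acyltransferase that adds the lipid Wnts need for secretion, 7 were tested. Wnt16 was the ligand with the highest level per length in Control aortas and the only ligand called lower, beside 3.30% of all genes. Wnt16 (ENSMUSG00000029671) lies on chromosome 6 (GRCm38, the build named mm10), plus strand, between 22288227 and 22298522, and has 5 exons. The RefSeq promoter of Wnt16, the gene with the largest fall among the ligands, is shown as the 250 bases before its start (GRCm38.p6, chr6:22287977-22288226, plus strand), with the 9 CpG pairs in capitals.
Wnt16: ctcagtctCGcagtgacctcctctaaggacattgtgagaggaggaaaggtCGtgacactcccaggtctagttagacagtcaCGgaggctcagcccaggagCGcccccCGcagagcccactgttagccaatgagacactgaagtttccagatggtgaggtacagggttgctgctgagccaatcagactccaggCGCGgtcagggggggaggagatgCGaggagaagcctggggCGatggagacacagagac
Its normalized count was 45.8, 48.8 and 53.2 CPM in Controls 1 to 3 and 17.8, 17.3 and 14.7 CPM in iSM KO 1 to 3. The groups were far apart, with every iSM KO library well below the lowest Control. The log2 fold change was -1.57 (SE 0.10, 95% interval -1.80 to -1.34, FDR = 7.00e-05), and the fits without 1 library gave -1.62 to -1.49.

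Porcn (chromosome X, 8193848 to 8206525, minus strand) stood at 6.12, 5.67 and 5.45 CPM in Controls and at 8.49, 9.80 and 9.31 CPM in iSM KO. Every iSM KO value lay above every Control value. The log2 fold change was 0.68 (SE 0.12, FDR = 0.0114), and without iSM KO 2 the FDR was 0.0777. The cargo receptor Wls, which carries acylated Wnts to the cell surface and was named after its values were seen, ranged from 103 to 119 CPM in Controls and from 107 to 111 CPM in iSM KO, at a log2 fold change of -0.01 (SE 0.08, FDR = 0.971).

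No other ligand passed the test. Wnt9a, second in level per length, had 11.7, 9.24 and 11.8 CPM in Controls and 10.8, 9.11 and 10.9 CPM in iSM KO. These values overlapped almost fully, and the interval of the log2 fold change ran from -0.38 to 0.22. Wnt5a, a ligand best known for signalling without β-catenin, had 26.8, 13.1 and 21.2 CPM in Controls and 13.8, 13.0 and 17.1 CPM in iSM KO. Control 2 lay inside the iSM KO range, and the log2 fold change was -0.47 (SE 0.23, FDR = 0.267). Without Control 2, it was -0.71 with an FDR of 0.0291. The log2 fold changes of Wnt2b, Wnt4 and Wnt5b were -0.31, -0.72 and 0.14, with FDRs of 0.382, 0.279 and 0.798. For Wnt4 all iSM KO values (0.438 to 1.03 CPM) lay below all Controls (1.07 to 1.17 CPM), as in 13.0% of all genes.

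On a scale of CPM per kb of exon, which allows levels of different genes to be added, the 19 Wnt genes summed to 20.4, 17.8 and 20.9 in Controls and to 11.2, 10.7 and 11.3 in iSM KO. The sums of the groups did not overlap. Without Wnt16 the sums were 9.89, 6.60 and 8.69 in Controls and 7.16, 6.77 and 7.92 in iSM KO, and the groups overlapped. Wnt16 made up 57.6 ± 5.74% of the Wnt sum in Controls and 34.4 ± 3.97% in iSM KO (SD, n = 3). The share of Wnt9a was 16.6 ± 0.892% and 27.8 ± 2.06%, and that of Wnt5a was 13.0 ± 3.69% and 16.8 ± 2.15%. In iSM KO 3, Wnt16 at 29.8% and Wnt9a at 29.1% took nearly equal shares.

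**Figure D2:**
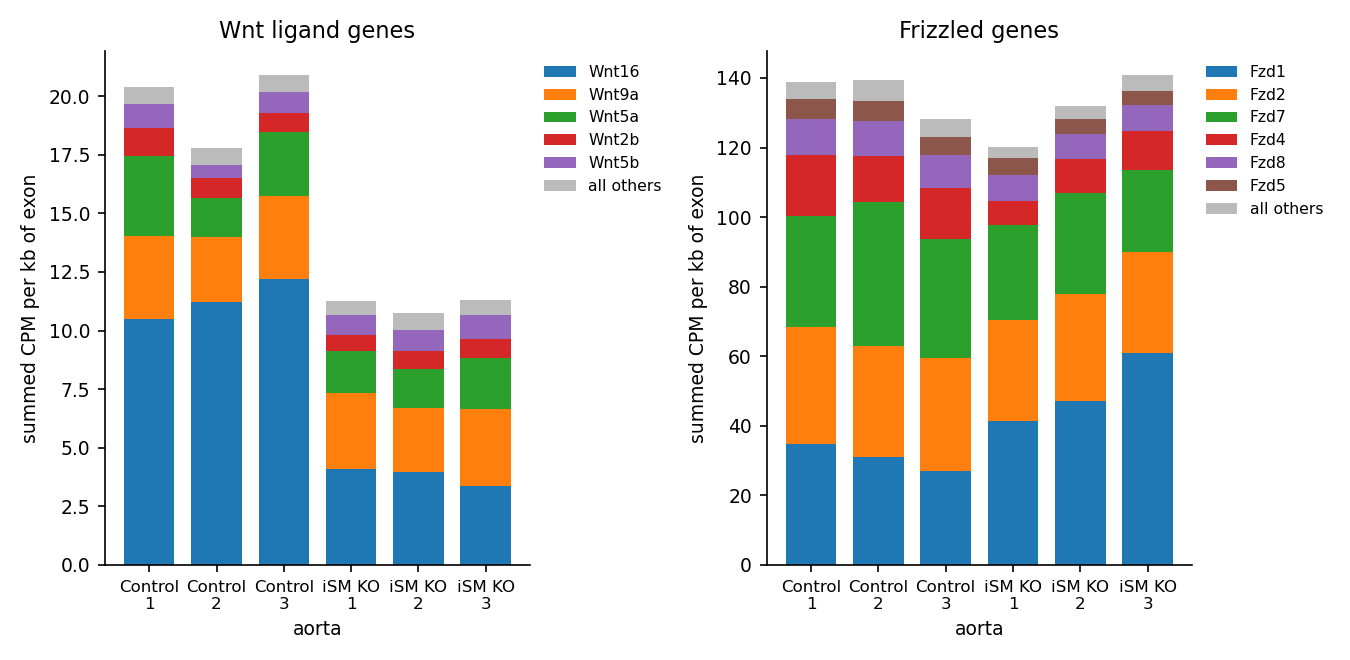
Summed CPM per kb of exon of the Wnt genes (left) and the Frizzled genes (right) in each of the 6 aortas, stacked by gene. The Wnt sum is 17.8 or more in every Control and 11.3 or less in every iSM KO aorta, while the Frizzled sums overlap between the groups.

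The other 13 ligands did not reach the count needed for a test. Wnt3a and Wnt8a had 0 counts in every library, where a floor of 3 counts corresponds to 0.0736 to 0.126 CPM. Wnt11 had the highest count of the untested members, 30 in a single library, or 0.896 CPM. For Wnt1, Wnt2, Wnt3, Wnt6, Wnt7a, Wnt7b, Wnt8b, Wnt9b, Wnt10a and Wnt10b no library held more than 23 counts, and differences were not detectable at this depth.

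Of 15 receptor genes, 14 were tested. Of these, 2 were called higher (Fzd1 and Ror1) and 2 lower (Fzd4 and Fzd8), beside 4.26% and 3.30% of all genes. In 7 of the 14 all iSM KO values lay below all Control values and in 2 they lay above, beside 13.0% and 15.0% of all genes. Frizzleds are seven-pass receptors, and Fzd1, Fzd2 and Fzd7 are close relatives with the highest levels per length of the family in these aortas.

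Fzd1 (chromosome 5, 4753839 to 4758035, minus strand, a single exon) had 146, 130 and 113 CPM in Controls and 174, 198 and 255 CPM in iSM KO. iSM KO 3 was the highest library and Control 3 the lowest. edgeR gave a log2 fold change of 0.69 (SE 0.15, FDR = 0.0249). The FDR was 0.0531 without Control 2, 0.0850 without Control 3 and 0.0753 without iSM KO 2.

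Ror1 (chromosome 4, 100095791 to 100444765, plus strand), a receptor tyrosine kinase-like protein that binds Wnt5a, had 53.0, 67.4 and 54.6 CPM in Controls and 84.9, 103 and 77.0 CPM in iSM KO. The groups did not overlap, and Control 2 and iSM KO 2 were the highest of their groups. edgeR gave a log2 fold change of 0.60 (SE 0.13, FDR = 0.0256). Without Control 1, Control 3, iSM KO 1 or iSM KO 2 the FDR was 0.0868, 0.0899, 0.0655 or 0.106. The order of the 6 libraries in Ror1 was that of the summed cardiomyocyte markers, which 0.604% of all tested genes share. That sum was 119 to 148 CPM in Controls and 159 to 211 CPM in iSM KO and was mostly Ryr2, which rose (log2 fold change 0.50, FDR = 0.0459). Of the 7 cardiomyocyte markers 4 were tested, with a median log2 fold change of -0.21, and Myl4, Myh6 and Actc1 had values of 0.46, -0.88 and -1.32 without passing. Myl7, Nppa and Myl2 were at or near 0. Their part in the values of Ror1 was not tested.

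The letters CTTTGA and CTTTGT, which Tcf/Lef proteins are known to bind, were sought on both strands in the 250 bases before each RefSeq start. They occurred in 27.6% of 32851 promoters of all genes, and in 12 of the 52 promoters of 42 members, or 23.1%. Of 7 called members with a listed promoter, 2 (Fzd1 and Ror1) held a match, near the share of all promoters. Lgr6 and Nkd1, which rose as Fzd1 and Ror1 did, held none. The match farthest from the start is shown for Fzd1 and for Ror1, with the matched letters in capitals. That of Fzd1 lies 242 bases before its start (GRCm38.p6, chr5:4758433-4758466, minus strand) and that of Ror1 205 bases before its start (chr4:100095566-100095611, plus strand).
Fzd1: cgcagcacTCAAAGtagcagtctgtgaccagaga
Ror1: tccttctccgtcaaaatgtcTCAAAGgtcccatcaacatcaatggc
TCAAAG is CTTTGA read on the other strand, and the promoter of Fzd1 held CTTTGT as a second match. RefSeq places the start of Fzd1 upstream of the GENCODE one. The matches are a description of letters and not evidence of binding.

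Fzd8 (chromosome 18, 9212163 to 9218136, plus strand, a single exon) had 61.9, 60.6 and 56.9 CPM in Controls and 45.8, 43.0 and 44.7 CPM in iSM KO. Both groups were tight and did not overlap. On the log2 scale the difference was -0.43 (SE 0.07, FDR = 0.00812), and without iSM KO 2 the FDR was 0.0648.

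Fzd4 (chromosome 7, 89404355 to 89413134, plus strand), which also binds norrin in endothelial cells, had 117, 88.0 and 98.1 CPM in Controls and 46.6, 64.9 and 75.1 CPM in iSM KO. The groups did not overlap, and iSM KO 1 was the lowest library. On the log2 scale the difference was -0.70 (SE 0.17, FDR = 0.0398). Without Control 1, Control 3, iSM KO 1 or iSM KO 2 the FDR was 0.119, 0.0911, 0.0811 or 0.117. The endothelial markers summed to 919, 1065 and 554 CPM in Controls and to 311, 510 and 827 CPM in iSM KO, and all 8 of them had a negative log2 fold change (median -0.60), with a smallest FDR of 0.0677 for Erg. Within iSM KO, Fzd4 and that sum had the same order of libraries, and within Controls they did not. How many of all genes share the order within iSM KO was not counted, and the part of endothelial RNA in Fzd4 was not tested.

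Other Frizzleds had all iSM KO values below all Controls without passing the test, namely Fzd2 (log2 fold change -0.14, FDR = 0.281), Fzd5 (-0.34, 0.0531), Fzd6 (-0.56, 0.0684) and Fzd7 (-0.43, 0.0568). Fzd7 had 145, 188 and 156 CPM in Controls and 124, 132 and 107 CPM in iSM KO. Fzd2 had 123, 117 and 119 CPM in Controls and 106, 113 and 107 CPM in iSM KO. Fzd6 had 17.5, 19.9 and 17.2 CPM in Controls and 9.25, 13.6 and 14.2 CPM in iSM KO, with the order of the endothelial sum inside each group. The share of all genes with that order inside each group was not counted, and the endothelial part in Fzd6 was not tested. With DESeq2 in place of edgeR, Fzd5, Fzd6 and Fzd7 passed, with FDRs of 0.0393, 0.0175 and 0.0104. The coreceptor Lrp6 had a log2 fold change of -0.18 (SE 0.07, FDR = 0.194) and Lrp5 one of -0.14 (SE 0.13, FDR = 0.578). Ryk stood at 50.2 ± 3.01 CPM in Controls against 51.6 ± 1.18 CPM in iSM KO (SD, n = 3), and the 95% interval of its log2 fold change was -0.13 to 0.21. Fzd3, Fzd9 and Ror2 had overlapping groups, and Fzd10 had at most 5 counts in a library.

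In CPM per kb, the Frizzled genes summed to 139, 139 and 128 in Controls and to 120, 132 and 141 in iSM KO. The sums overlapped, while their makeup differed. The share of Fzd1 was 22.8 ± 2.06% in Controls and 37.8 ± 4.77% in iSM KO (SD, n = 3). The shares of Fzd7 were 26.6 ± 3.34% and 20.5 ± 3.28%, those of Fzd4 were 11.1 ± 1.60% and 7.01 ± 1.12%, and those of Fzd8 were 7.39 ± 0.0938% and 5.71 ± 0.582%. In Controls Fzd1, Fzd2 and Fzd7 stood at 30.9 ± 3.89, 32.7 ± 0.860 and 36.0 ± 4.88 CPM per kb. In iSM KO Fzd1 had the mean of 49.8, above Fzd2 at 29.6 ± 0.947 and Fzd7 at 26.6 ± 2.82.

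**Figure D3:**
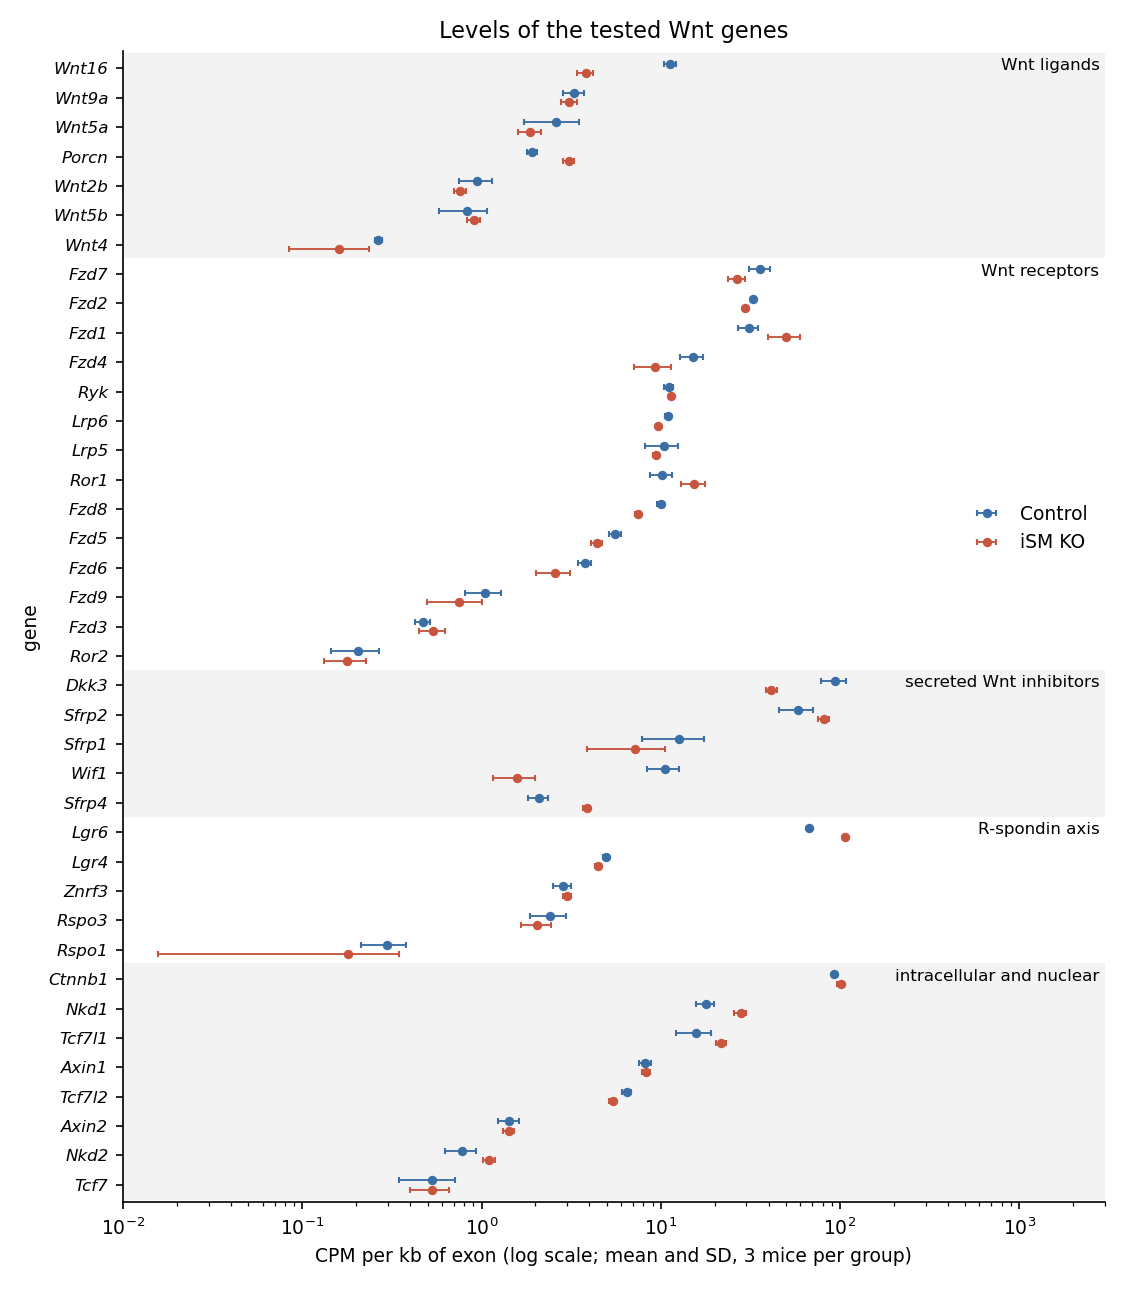
Level of each tested Wnt gene in CPM per kb of exon (x axis, log scale), by role on the y axis, as the mean and SD of 3 mice per group. Lgr6, Ctnnb1, Dkk3 and Sfrp2 have the highest levels, and Wif1 drops from 10.5 to 1.57 between Control and iSM KO.

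Among the 10 secreted inhibitors 5 were tested, and 3 of these passed, beside 7.56% of all genes tested. Wif1 and Dkk3 were lower and Sfrp4 was higher. Wif1, Wnt inhibitory factor 1, binds Wnt ligands outside the cell. Wif1 (ENSMUSG00000020218) has 10 exons on the plus strand of chromosome 10, from 121033960 to 121100650. Its promoter is shown since it had the largest fold change of all tested members, as the 206 bases up to the first annotated start (GRCm38.p6, chr10:121033754-121033959, plus strand), with 17 CpG pairs in capitals.
Wif1: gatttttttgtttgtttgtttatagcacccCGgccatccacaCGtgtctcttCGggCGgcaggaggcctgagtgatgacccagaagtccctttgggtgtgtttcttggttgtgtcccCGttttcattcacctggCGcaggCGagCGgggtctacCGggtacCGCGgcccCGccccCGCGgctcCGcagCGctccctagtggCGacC
The 250 bases before its RefSeq start held 21 CpG pairs, more than 83.7% of all promoters in the table, where the median was 6, and those of Wnt16 held more than 59.7%. The median over promoters of members was 20.5.

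Wif1 had 31.2, 21.3 and 23.9 CPM in Controls and 4.83, 3.78 and 2.82 CPM in iSM KO. The lowest Control was several times the highest iSM KO value. The log2 fold change was -2.74 (SE 0.21, 95% interval -3.21 to -2.26, FDR = 0.000158), a 6.66-fold lower level, and fits without 1 library gave -2.95 to -2.56. In CPM per kb, Wif1 fell from 10.5 ± 2.10, a level near that of Wnt16 at 11.3 ± 0.852 in the same Controls, to 1.57 ± 0.415 (SD, n = 3).

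Dkk3 (chromosome 7, 112116017 to 112159057, minus strand), a divergent member of the Dickkopf family, had 369, 303 and 269 CPM in Controls and 132, 135 and 150 CPM in iSM KO. It was grouped with the inhibitors by its symbol, and whether it inhibits Wnt signalling in these aortas was not tested. All iSM KO values lay far below the lowest Control. The log2 fold change was -1.17 (SE 0.12, 95% interval -1.45 to -0.90, FDR = 0.000758), and without each library in turn it ran from -1.27 to -1.04. Per length Dkk3 was the highest of the secreted inhibitors in Controls, at 93.4 CPM per kb beside 58.0 for Sfrp2, and in iSM KO it stood at 41.4 ± 2.91 (SD, n = 3), below Sfrp2 at 81.4 ± 5.91.

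Sfrp4 (chromosome 13, 19623104 to 19632994, plus strand), a secreted Frizzled-related protein, had 9.94, 7.73 and 8.51 CPM in Controls and 15.4, 16.3 and 16.7 CPM in iSM KO. The groups were well separated. On the log2 scale the rise was 0.89 (SE 0.12, FDR = 0.00256), the largest rise among the members.

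Sfrp2 and Sfrp1, which share the Frizzled-like domain of Sfrp4, did not pass. Sfrp2 had 156, 114 and 105 CPM in Controls and 161, 184 and 182 CPM in iSM KO. All iSM KO values lay above the Controls, with Control 1 close to iSM KO 1, and the log2 fold change was 0.49 (SE 0.14, FDR = 0.0748). Without Control 1 it was 0.68 with an FDR of 0.00840, and with DESeq2 the FDR was 0.0101. Sfrp1 had 64.7, 70.4 and 31.3 CPM in Controls and 17.6, 30.2 and 46.8 CPM in iSM KO, with a log2 fold change of -0.82 (SE 0.36, FDR = 0.226). The order of the 6 libraries in Sfrp1 was exactly that of the summed endothelial markers, which held for 103 of all genes tested (0.622%), and their part in Sfrp1 was not tested. Sfrp5, Dkk1, Dkk2, Dkk4 and Notum were not tested, with at most 11 counts in a library.

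**Figure D4:**
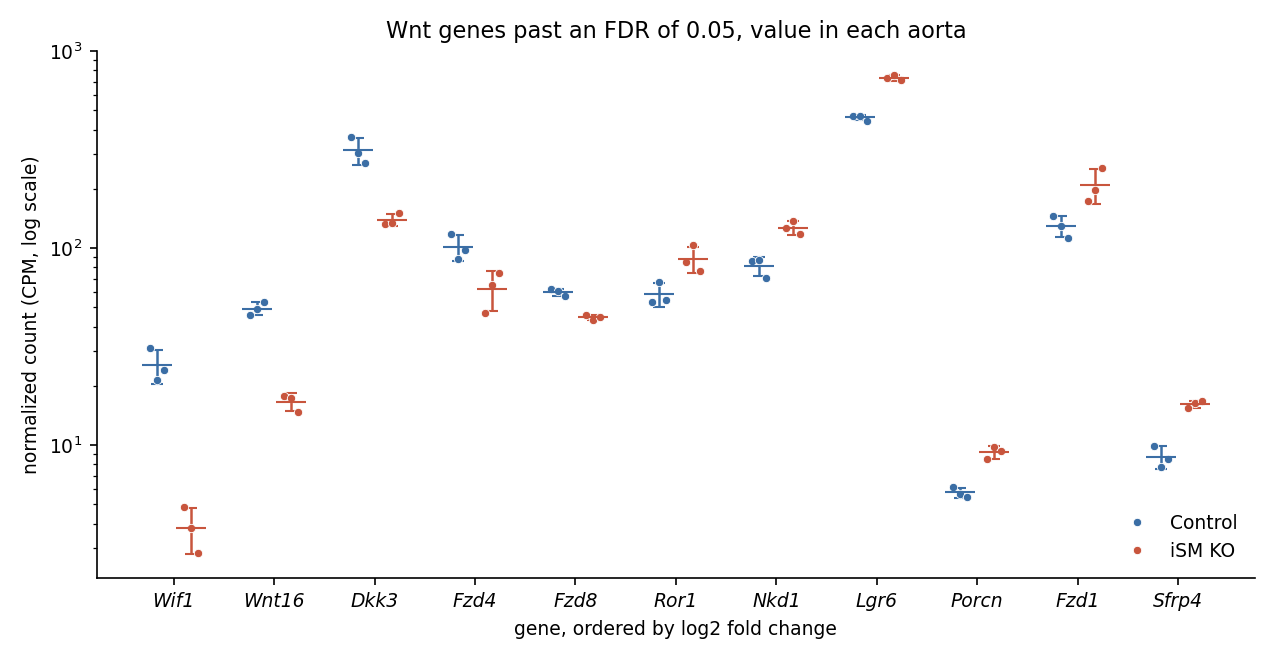
Normalized counts (CPM, log scale) of the 11 called Wnt genes in each aorta (points), with group means and SDs (3 mice per group), ordered by log2 fold change. The Control and iSM KO points do not overlap in any of the 11 genes, nor in 27.9% of all tested genes. The 11 genes were chosen by their FDR from these same values.

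Wif1, Wnt16 and Dkk3 were also set beside markers of adventitial cells. The 8 adventitial fibroblast markers summed to 282, 156 and 196 CPM in Controls and to 103, 119 and 168 CPM in iSM KO. All 8 had a negative log2 fold change with a median of -0.68, and Clec3b passed the test (log2 fold change -1.56, FDR = 0.0348). Clec3b passed in 7 of the 13 alternatives, with FDRs up to 0.133. Within iSM KO, the fibroblast sum was highest in iSM KO 3, where Wif1 and Wnt16 were lowest and Dkk3 was highest. Dkk3 had the order of that sum within iSM KO, and Wif1 had it within Controls. The fibroblast sum was 168 CPM in iSM KO 3 and 156 CPM in Control 2, with Clec3b, Pi16 and Cd34 lower in iSM KO 3 and the others higher. Wif1 was 2.82 CPM in iSM KO 3 and 21.3 CPM in Control 2, and Dkk3 was 150 CPM and 303 CPM. Wnt5a and Rspo3 were highest in Control 1, Control 3 and iSM KO 3, the libraries with the highest fibroblast sum. For these partial matches with the fibroblast sum, the share of all genes was not counted. Adipocyte markers summed to 31.0, 119 and 117 CPM in Controls and to between 19.3 and 23.2 CPM in iSM KO. Of these 8, 7 were tested, with Adipoq, Plin1, Cidec, Fabp4 and Cidea lower and Pparg higher. Fabp4 and Pparg passed in all 13 alternatives, Cidea in 12, Adipoq in 10, Plin1 in 7 and Cidec in 6. Control 1 had the lowest adipocyte sum of the Controls. Wif1 and Dkk3 were highest in Control 1, while Wnt16 had its lowest Control value there (45.8 CPM, beside 48.8 and 53.2 CPM). Macrophage markers summed to 28.0 to 33.8 CPM in Controls and 11.5 to 32.6 CPM in iSM KO. All 7 had a negative log2 fold change (median -0.60), with a smallest FDR of 0.146 for Lyz2. T and B cell markers summed to at most 1.26 CPM in a library with 0 of 7 tested. Schwann and nerve markers, mostly Ncam1, summed to 421 to 501 CPM in Controls and 562 to 570 CPM in iSM KO. The 5 tested had positive log2 fold changes (median 0.19), and 0 passed. The part of these cells in the values of the members was not tested.

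**Figure D5:**
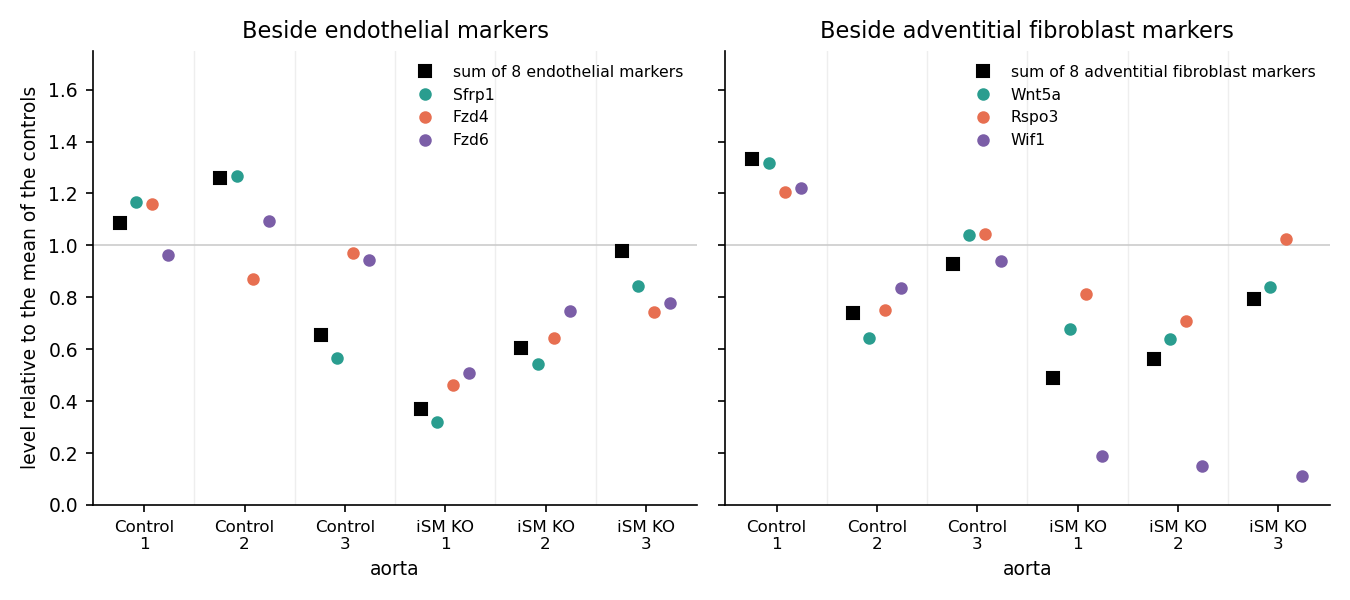
Level relative to the mean of the Controls (y axis) in each aorta, for the summed endothelial markers with Sfrp1, Fzd4 and Fzd6 (left) and the summed adventitial fibroblast markers with Wnt5a, Rspo3 and Wif1 (right). Sfrp1 follows the order of the endothelial sum, and Wif1 is at most 0.190 in every iSM KO aorta at fibroblast sums from 0.488 to 0.795.

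In the R-spondin axis 5 of 9 genes were tested and Lgr6 alone passed, beside 7.56% of all genes tested. Lgr6 (ENSMUSG00000042793) is a receptor for R-spondins with a long extracellular leucine-rich repeat domain, encoded by 20 merged exons on the minus strand of chromosome 1 from 134983301 to 135105276. It had 468, 471 and 444 CPM in Controls and 727, 759 and 712 CPM in iSM KO. Spread within the groups was small, and the groups were far apart. This gave a log2 fold change of 0.67 (SE 0.08, 95% interval 0.48 to 0.85, FDR = 0.00174). At 67.3 ± 2.12 CPM per kb in Controls and 107 ± 3.51 in iSM KO, it had the highest level per length of the members in iSM KO aortas, with Ctnnb1 close behind. Its promoter is shown because it was the most abundant of the members that rose, as the 250 bases before the RefSeq start (GRCm38.p6, chr1:135105277-135105526, minus strand), with 16 CpG pairs in capitals.
Lgr6: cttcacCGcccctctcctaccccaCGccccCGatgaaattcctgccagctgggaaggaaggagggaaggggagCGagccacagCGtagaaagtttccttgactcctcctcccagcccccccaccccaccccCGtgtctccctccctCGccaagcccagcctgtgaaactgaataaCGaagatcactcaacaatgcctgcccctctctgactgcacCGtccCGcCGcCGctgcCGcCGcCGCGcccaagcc

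The relatives of Lgr6 were much lower in level per length, Lgr4 at 4.94 CPM per kb in Controls. Lgr4 had 30.5, 28.5 and 28.3 CPM in Controls and 26.1, 27.1 and 25.2 CPM in iSM KO, with a log2 fold change of -0.16 (SE 0.08, FDR = 0.294), and Lgr5 had 7 to 24 counts per library and was not tested. The ligands Rspo1 and Rspo3 had log2 fold changes of -0.69 (SE 0.58, FDR = 0.529) and -0.23 (SE 0.20, FDR = 0.541). Rspo2 had at most 4 counts in a library, and Rspo4 had 0 counts in all. The ligase Znrf3, which clears Frizzleds from the membrane, stood at 22.4 ± 2.55 CPM and 23.6 ± 1.14 CPM (SD, n = 3), and its relative Rnf43 had at most 14 counts.

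Among the 9 intracellular and nuclear members 8 were tested and Nkd1 alone passed, which is 12.5%, beside 7.56% of all genes tested. Nkd1, Naked cuticle 1, binds Dishevelled and is a known feedback inhibitor of the pathway (chromosome 8, 88521354 to 88594884, plus strand). It had 85.6, 87.0 and 70.7 CPM in Controls and 126, 137 and 118 CPM in iSM KO. All iSM KO values lay above all Controls. Nkd1 rose by a log2 fold change of 0.65 (SE 0.10, FDR = 0.0058). Its relative Nkd2 had 3.76 ± 0.757 CPM in Controls against 5.32 ± 0.407 CPM in iSM KO (SD, n = 3), and its log2 fold change of 0.50 did not pass (FDR = 0.144).

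Axin2, the member most used as a readout of β-catenin activity, had 8.87, 6.74 and 8.05 CPM in Controls and 8.07, 7.14 and 8.21 CPM in iSM KO. The groups overlapped almost fully, and the log2 fold change was -0.01 (SE 0.14, 95% interval -0.33 to 0.30, FDR = 0.971), with a sign that depended on the library left out. Ctnnb1, which encodes β-catenin itself, had 485, 484 and 482 CPM in Controls and 500, 550 and 522 CPM in iSM KO. Its iSM KO values were all above the Controls, but the log2 fold change was 0.12 (SE 0.08, 95% interval -0.07 to 0.30, FDR = 0.440). The difference in log2 fold change between Axin2 and Nkd1, both feedback inhibitors, was not tested.

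Of the Tcf/Lef factors, which carry β-catenin to DNA, Tcf7l1 was the highest in level. It had 72.8, 64.9 and 46.5 CPM in Controls and 79.5, 89.0 and 87.9 CPM in iSM KO, with a log2 fold change of 0.47 (SE 0.15, FDR = 0.0907). Control 3 was the lowest library, and with DESeq2 the FDR was 0.0211. Tcf7l2 had 60.1, 54.0 and 55.9 CPM in Controls and 44.9, 47.7 and 49.4 CPM in iSM KO, with a log2 fold change of -0.26 (SE 0.08, FDR = 0.0804). The groups of each factor did not overlap, in opposite directions. Tcf7 stood at 1.38 CPM in both groups, and Lef1 had 1 to 6 counts per library.

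A further list of 105 genes of the Wnt pathway outside the members was counted beside them. Of these 92 were tested, 6 were higher and 2 lower, which is 8.70%, near the 7.56% of all genes, and their median log2 fold change was 0.07. Without iSM KO 2, 2 were higher, and without Control 2, Control 3 or iSM KO 3, 4 were lower. Frzb passed in 6 of the 13 alternatives, with FDRs up to 0.150, and Ccn4 in 7, with FDRs up to 0.173. Dvl1 did not pass without iSM KO 2 (FDR = 0.0634), nor Tnks without iSM KO 1 or iSM KO 2 (FDR up to 0.108). The higher genes were Frzb, a secreted Frizzled-related protein (log2 fold change 0.50, FDR = 0.0488), Sulf1, an extracellular sulfatase that trims heparan sulfate (0.61, 0.00498), Dvl1, a Dishevelled (0.47, 0.0094), Tnks, a tankyrase that targets Axin for degradation (0.39, 0.0166), and the Wnt target genes Ccn4 (0.63, 0.0392) and Cd44 (1.70, 0.000251). The lower genes were Celsr2, a planar polarity cadherin (-0.55, 0.00558), and Sox9, a cartilage transcription factor listed as a Wnt target (-1.60, 0.000917). Of 13 tested Wnt target genes, 2 were higher and 1 lower. Sost, which encodes the Lrp5 and Lrp6 antagonist sclerostin and was named after its values were seen, stood at 377 CPM per kb in Controls and 317 in iSM KO, above every member, with a log2 fold change of -0.25 (SE 0.17, FDR = 0.438).

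Exons of Wnt5a, Fzd5, Fzd6, Sfrp2, Rspo3, Ctnnb1, Axin2 and Tcf7l1 overlap a gene on the other strand in GENCODE, and whether counting used strand is not given in the sources used here, so reads of such pairs may not be separated. None of the 11 called members has such an overlap.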

How the data were processed

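The authors depleted ribosomal RNA, sequenced paired-end reads and quantified them with DRAGEN against mm10 and Ensembl release 101, per the labels and methods. They deposited expected counts, one estimate per gene and library, without normalization or rounding. How reads matching several genes were shared is not given in the sources used here. Rounded counts of 16565 genes, each above 10 in every library of the Controls or of the iSM KO group, entered edgeR's quasi-likelihood fit with TMM factors and no covariates (edgeR 4.0.16, R 4.3.3). FDR is the Benjamini-Hochberg value over all of them. A total of 3 counts set the floor, and floors cover counting error only. Exon lengths and positions came from GENCODE M21 on GRCm38 and promoters from RefSeq on GRCm38.p6. Which mice shared a litter is not given, so p-values measure the spread between these samples. For 1 gene, the smallest p of an exact permutation test with 3 against 3 mice is 0.1. The members and gene lists were chosen with earlier results of these data known. Genes were named if called, if among the 2 highest per role, or as members of a list past the threshold. Untested members were named by their counts. Other uncalled members, among them Wnt5a, Fzd6, Sfrp1, Axin2 and Tcf7l2, were named outside this rule. Alternatives were DESeq2 1.42.0, limma-voom (limma 3.58.1), other scalings and filters, a replicate block and each library left out. All 6 deposited sample columns were used.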

Additional observations from a re-analysis of the deposited data

How the results depend on the processing

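All 11 called members kept their direction in the 13 alternatives, and Wnt16, Wif1, Sfrp4, Dkk3, Lgr6 and Nkd1 also kept an FDR under 0.05 in each. Among the 28 uncalled members, 7 passed in at least 1 alternative. The lower members numbered 8 with DESeq2 and 8 with no filter on low counts, where Fzd6 and Fzd7 passed in both, Fzd5 with DESeq2 and Sfrp1 with no filter (FDR = 0.0275). With no filter, 863 of the 30712 genes tested were lower, and no count of all genes with DESeq2 is given here. Of the other Wnt pathway genes 11 were higher and 6 lower with DESeq2, and 7 were lower with no filter. The cause was not tested.

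Leaving out 1 library gave 3 to 6 higher and 3 to 6 lower members, 313 to 764 higher and 203 to 638 lower genes in all, and 2 to 8 higher and 2 to 4 lower other Wnt pathway genes. The lowest counts of members (3 and 3) and of all genes came without iSM KO 2, and without iSM KO 1 there were 383 higher and 241 lower genes. In these fits the log2 fold change changed sign for Wnt5b (-0.10 to 0.35, without Control 2), Lrp5 (-0.26 to 0.039, without Control 2), Ror2 (-0.41 to 0.033, without Control 2), Ryk (-0.0048 to 0.082, without Control 2), Znrf3 (-0.016 to 0.13, without Control 3), Axin1 (-0.051 to 0.069, without Control 3 or iSM KO 1), Axin2 (-0.11 to 0.091, without Control 1, Control 3 or iSM KO 2) and Tcf7 (-0.26 to 0.21, without Control 1 or iSM KO 2), and with limma-voom that of Axin2 was 0.0065. None of these genes passed the test.

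Whether replicate numbers pair the mice is not given in the sources used here. Same-numbered libraries had correlations of deviations of -0.13, -0.05 and -0.11, and no library correlated best with its own number. Correlations among so few libraries cannot decide whether the numbers mark pairs. With the replicate number as a block, 457 genes were higher and 318 lower, with 4 higher and 4 lower members, and Porcn, Fzd1 and Fzd4 had FDRs of 0.0524, 0.0765 and 0.0854. The 24 untested members had too few counts for a comparison.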
